A study of Homo sapiens with 27 samples.

Results

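STC1 and STC2 encode the stanniocalcins, a pair of secreted glycoprotein hormones. They were taken from the deposited table by gene symbol, each symbol had 1 row, and so 2 of the table's 40487 rows are described here across all 9 groups of the study. Both were selected on measured values of these libraries, taken here to be the levels in EGF+OSM against PBS, where STC1 was already known to rise strongly. Values of both genes in comparisons that use PBS or EGF+OSM libraries are therefore given as a description with no test, and tests are given only for comparisons that use neither. Values in all groups were known when the genes were chosen, so these tests describe the libraries and are not independent evidence.

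The cells were MCF10A, an established cell line of human breast epithelium that does not form tumours and depends on added growth factors. All groups were grown with 20 ng/ml epidermal growth factor (EGF), horse serum, hydrocortisone, cholera toxin, insulin and antibiotics, seeded on collagen, and moved after 6 h to medium without growth factors for 18 h. The T0 group is labelled as a control with no treatment. The other 8 groups received phosphate-buffered saline (PBS), EGF, oncostatin M (OSM, an interleukin-6 family cytokine), transforming growth factor beta (TGFB), EGF+OSM, EGF+TGFB, OSM+TGFB or EGF+OSM+TGFB, each ligand at 10 ng/ml, and the series gives 24 h after ligand treatment as the time of RNA sequencing. Each group had 3 libraries, 27 in all, from 1 cell line, and nothing in the labels says whether the replicates were separate cultures, so p-values measure the spread between these libraries only.

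Stanniocalcin was first known as a calcium-lowering hormone of fish, and the mammalian proteins act mainly on neighbouring cells. Both human proteins bind and inhibit the pappalysins PAPPA and PAPPA2, proteases that cut insulin-like growth factor (IGF) binding proteins and so free IGF to reach its receptor. STC1 is a known target of hypoxia-inducible factor, and STC2 is known to be induced by hypoxia and by the ATF4 branch of the endoplasmic reticulum stress response.

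The bases just before the start of STC2 are shown because hypoxia genes are followed below. RefSeq (GRCh38.p14) gives the 250 bases at chr5:173328415-173328664, minus strand, 5′ to 3′, with matches to the searched motifs in capitals. Distances are counted from the RefSeq start, which lies inside the GENCODE gene span, so the last bases of the window fall within that span:
STC2: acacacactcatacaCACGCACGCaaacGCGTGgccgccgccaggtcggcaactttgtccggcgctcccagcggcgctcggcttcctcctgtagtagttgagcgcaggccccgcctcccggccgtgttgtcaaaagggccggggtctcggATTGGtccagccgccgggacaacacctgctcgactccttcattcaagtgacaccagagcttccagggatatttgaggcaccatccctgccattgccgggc
Both strands were searched. GCGTG, 1 of the 2 forms of the hypoxia response core, matched 3 times, from 235, 231 and 222 bases before the start. The first 2 matches share 1 base. Of 34788 promoter windows of this length, 32.2% held GCGTG and 43.1% held at least 1 of the 2 forms. The STC2 window was 63.6% G or C, against a median of 58.0% over all windows. CCAAT matched 1 time (32.0% of windows). The letters TTCNNNGAA (STAT factors, 6.57% of windows), TGAGTCA (AP-1, 4.21%), CGGAAG (ETS factors, 16.5%), CAGACA (SMAD factors, 13.6%) and ACGTG (the other hypoxia core, 18.5%) were not in this window.

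Library totals ranged from 30143162 to 52947078 counts, with a median of 39530985. Basal epithelial markers were abundant in every library (KRT5 at 3315 to 9189 CPM (counts-per-million) and TP63 at 84.3 to 199), and of 4 leukocyte markers PTPRC, found on leukocytes in general, stayed at or under 0.12 CPM, CD3E at or under 0.125, and CD68 was at 20.3 to 50.4 CPM. The leukocyte sum ran from 20.3 to 23.4 CPM in EGF up to 45.1 to 50.4 CPM in OSM+TGFB. Of 7 fibroblast markers 3 exceeded 1 CPM in some library: COL1A1 at 3.82 to 118 CPM, DCN at 7.42 to 103 and PDGFRB at 0.094 to 1.04. COL3A1 stayed at or under 0.058 CPM. The sum of the 7 ran from 13.1 to 15.3 CPM in EGF+OSM up to 204 to 214 CPM in TGFB. Of 3 endothelial markers, VWF reached 3.52 CPM, PECAM1 2.06 and CDH5 0.144. SOCS3, a known response gene of OSM, followed the labels: it was at 80.3 to 165 CPM in the group means with OSM and at 1.20 to 6.35 in those without. BCL3, another such gene, had group means of 54.9 to 83.2 CPM with OSM and 15.5 to 28.6 without. OSMR, also such a gene, did not separate: EGF+TGFB libraries (298 to 370 CPM) overlapped those of EGF+OSM (336 to 384). MKI67, a proliferation marker, had group means from 13.9 CPM in TGFB to 634 in EGF+OSM, and the mitochondrial share of counts fell between 1.23% and 1.44% with all 3 ligands and between 2.85% and 3.06% in PBS. The summed luminal markers were at 398 to 420 CPM in PBS and at 1056 to 1119 with all 3 ligands. The part of these differences in the results below was not tested.

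STC1 (ENSG00000159167) lies on chromosome 8 at 23841929 to 23854806 of GRCh38, minus strand, and STC2 (ENSG00000113739) on chromosome 5 at 173314723 to 173328447, minus strand, by GENCODE v44. Each has 4 exons in its reference transcript. That transcript is 3868 nt long in STC1 and 4254 nt in STC2 and codes for 247 and 302 residues. No other annotated gene overlaps either of them. A homeobox gene lies near each of them: NKX2-6 is 135 kb from STC1 and NKX2-5 is 79.4 kb from STC2.

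STC1 was low in every group without OSM and high in every group with it. It was at 2.19, 2.05 and 2.12 CPM in the T0 libraries, on library sizes rescaled with edgeR's TMM factors (trimmed mean of M-values). It was at 1.30, 1.66 and 1.00 CPM in PBS and at 1.04, 1.85 and 1.83 in TGFB. The PBS and TGFB ranges overlapped and both lay below T0. These levels rest on 40 to 109 counts per library.

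EGF alone gave STC1 a small rise. Its 3 libraries were at 4.32, 3.14 and 2.74 CPM, a mean of 3.40 ± 0.826 CPM (SD, n = 3) against 2.12 ± 0.0702 in T0, and all lay above the T0 libraries. The difference from T0 was 0.68 ± 0.21 on the log2 scale (SE), and its adjusted p was 0.0061 (quasi-likelihood F test of edgeR, adjusted by Benjamini-Hochberg over all rows). That comparison called 31.6% of 16611 tested rows higher and 34.9% lower. Without EGF replicate 1 it was 0.48 with an adjusted p of 0.0605, and over its alternatives the adjusted p ranged from 0.00012 to 0.0605 (same edgeR test or DESeq2). T0 differs from the ligand groups in time as well as in ligand. Against PBS, described only, the fitted STC1 difference was larger, at 1.35 ± 0.23 (SE), or 2.55-fold.

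OSM raised STC1 far more. With OSM alone the libraries were at 55.4, 49.5 and 64.8 CPM, a mean of 56.6 ± 7.71 CPM (SD, n = 3). That is 16.6 times the EGF level, a log2 difference of 4.05 ± 0.16 (SE; adjusted p 6.9e-15, same edgeR test), and the libraries of the 2 groups lay far apart. Rows called higher in OSM than in EGF made up 26.8% of those tested and rows called lower 27.6%. Against T0 the rise was 4.73 ± 0.17 (adjusted p 1.0e-15), where 29.8% of rows were called higher and 26.3% lower. In bulk RNA, more cells expressing a gene and more RNA per cell cannot be told apart, here and in all results below.

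The 2 ligands together gave the highest STC1 levels. EGF+OSM libraries were at 200.4, 171 and 191 CPM, and those with all 3 ligands at 199, 167 and 172 CPM. These ranges overlapped each other and lay above every other group. EGF+OSM reached 188 ± 15.02 CPM (SD, n = 3), 142 times the PBS mean of 1.32 ± 0.328. This is the comparison taken here to have led to the choice of the gene.

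**Figure D1:**
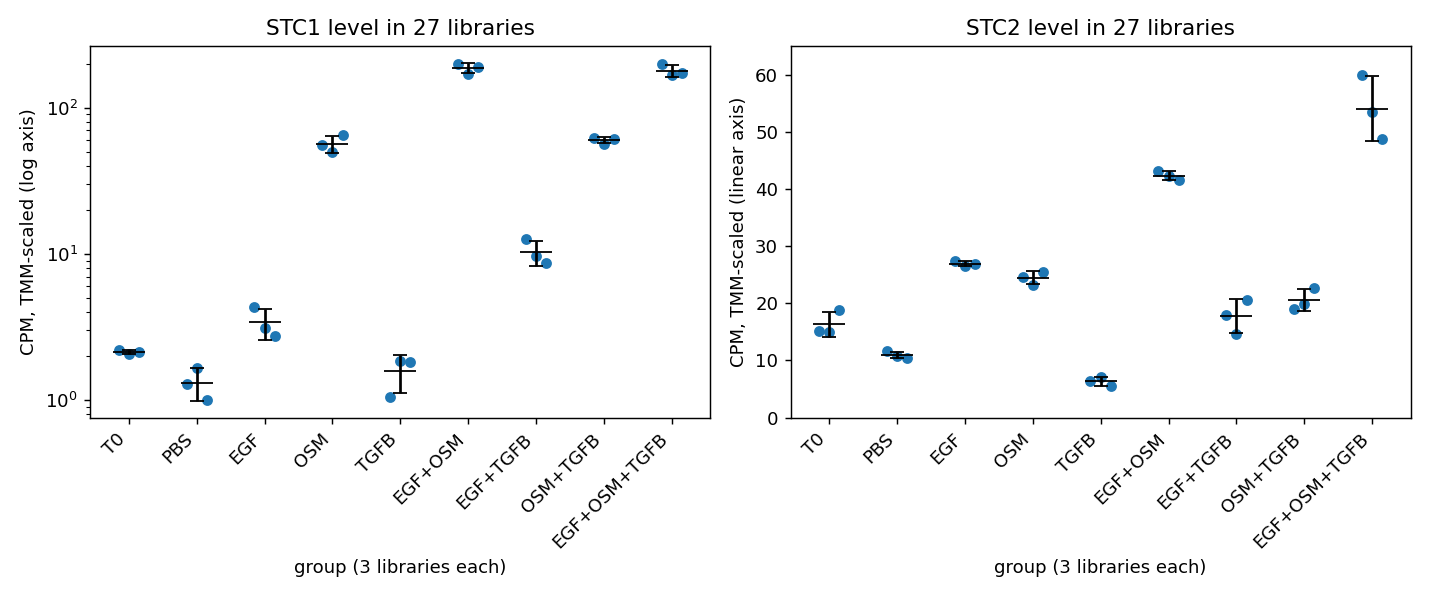
Level of STC1 (left, log axis) and STC2 (right, linear axis) in CPM, TMM-scaled, in the 9 groups; dots are the 3 libraries, the horizontal mark is the mean and the bar is ± 1 SD. STC1 splits into groups with OSM (49.5 CPM or more in each library) and without it (12.6 CPM or less), while STC2 moves over a narrower range with its lowest mean in TGFB (6.37 CPM) and its highest with all 3 ligands (54.05 CPM).

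STC2 followed a different order. It was at 15.2, 14.995 and 18.8 CPM in T0 and at 11.6, 10.9 and 10.5 CPM in PBS. TGFB alone gave the lowest libraries of all, at 6.42, 7.12 and 5.58 CPM. STC2 therefore stood lower in TGFB than in PBS in all 3 libraries. Against T0, the TGFB level was lower by a log2 difference of -1.35 ± 0.11 (SE; adjusted p 1.2e-09, same edgeR test), where 22.9% of rows were called lower and 24.7% higher. For STC1 the same difference was -0.43 ± 0.24 and did not pass the threshold (adjusted p 0.158), with a 95% interval from -0.93 to 0.08.

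EGF and OSM raised STC2 to nearly the same level. The EGF libraries were at 27.5, 26.6 and 26.8 CPM and the OSM libraries at 24.7, 23.2 and 25.5 CPM. The ranges did not overlap, but the log2 difference of OSM from EGF was only -0.14 ± 0.10 (SE; adjusted p 0.265, same edgeR test), with a 95% interval from -0.35 to 0.07. For STC1 the difference between the same groups was 4.05. Against T0, STC2 was higher by 0.73 ± 0.10 with EGF (adjusted p 1.4e-06) and by 0.59 ± 0.10 with OSM (adjusted p 4.2e-05). Against PBS, described only, the fitted differences were 1.29 ± 0.11 with EGF and 1.15 ± 0.11 with OSM (SE).

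The combinations took STC2 higher. With EGF+OSM the libraries were at 43.1, 42.2 and 41.6 CPM. With all 3 ligands they were at 59.95, 53.5 and 48.7 CPM. The 2 ranges did not overlap, and each lay above all other groups. In EGF+TGFB the libraries were at 17.99, 14.6 and 20.5 CPM and in OSM+TGFB at 19.02, 19.9 and 22.7 CPM, and these ranges overlapped each other and, for EGF+TGFB, that of T0.

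From lowest to highest mean, STC1 ran PBS, TGFB, T0, EGF, EGF+TGFB, OSM, OSM+TGFB, EGF+OSM+TGFB, EGF+OSM. Neighbouring ranges overlapped for PBS with TGFB, OSM with OSM+TGFB, and the 2 highest groups. STC2 ran TGFB, PBS, T0, EGF+TGFB, OSM+TGFB, OSM, EGF, EGF+OSM, EGF+OSM+TGFB, with overlap of T0 with EGF+TGFB and of EGF+TGFB with OSM+TGFB. Both orders are for TMM-scaled CPM. On raw library totals, OSM (55.6 CPM) stood above OSM+TGFB (52.6) for STC1, and EGF+TGFB (16.8) below T0 (17.8) for STC2. The range of the group means on the log2 scale was 7.12 for STC1, rank 71 of the 16611 tested rows, and 3.08 for STC2, rank 2010, where the median row had a range of 1.22. Across the 9 group means of log2 CPM the 2 genes had a Pearson r of 0.820 and a Spearman rho of 0.85. These points share libraries and the groups share ligands, so the correlation is a description.

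Which of the 2 was the more abundant changed with OSM. Per kb of reference transcript, STC2 was at 2.58 CPM per kb in PBS, 7.57 times STC1, and at 6.33 in EGF, 7.21 times STC1. With OSM, STC1 was at 14.6 CPM per kb, 2.54 times STC2. In EGF+OSM it was at 48.5, or 4.87 times STC2. The effective transcript lengths used upstream are not given in the sources used here, so these ratios are approximate.

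Within cells given TGFB, each of the other ligands raised both genes. Adding EGF to TGFB took STC1 from 1.57 ± 0.459 CPM to 10.3 ± 2.01 CPM (SD, n = 3), a log2 difference of 2.71 ± 0.20 (SE; adjusted p 8.2e-11, same edgeR test). The EGF+TGFB libraries stood at 12.6, 9.69 and 8.71 CPM, above every TGFB library. STC2 rose in that comparison by 1.46 ± 0.12 (adjusted p 6.7e-11). Both members were thus called higher, as were 32.7% of all tested rows, while 34.1% were called lower.

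Adding OSM to TGFB took STC1 to 62.1, 56.7 and 60.8 CPM, 37.9 times the TGFB level. The log2 difference was 5.24 ± 0.18 (SE; adjusted p 5.4e-16, same edgeR test), rank 65 of 16611 rows. STC2 rose by 1.69 ± 0.11 (adjusted p 8.8e-12), to 20.6 ± 1.95 CPM (SD, n = 3). In this comparison 28.9% of rows were called higher and 25.3% lower.

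The third ligand raised both genes again. EGF added to OSM+TGFB raised STC1 by 1.58 ± 0.13 on the log2 scale (SE), to 179 ± 17.5 CPM (SD, n = 3), and STC2 by 1.40 ± 0.10, with adjusted p of 2.5e-09 and 2.2e-10 (same edgeR test), among 25.2% of rows called higher and 24.9% called lower. OSM added to EGF+TGFB raised STC1 by 4.12 ± 0.15 (adjusted p 4.3e-15, rank 47 of 16611) and STC2 by 1.62 ± 0.11 (adjusted p 1.9e-11). In that last comparison 12.8% of rows were called higher and 12.0% lower, and all 3 libraries with the 3 ligands lay above the EGF+TGFB libraries for both genes.

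Added to EGF, TGFB moved the 2 genes in opposite directions. STC1 rose from 3.40 to 10.3 CPM, a log2 difference of 1.60 ± 0.17 (SE; adjusted p 8.8e-08, same edgeR test), while 25.8% of rows were called higher. STC2 fell from 26.9 ± 0.463 to 17.7 ± 2.97 CPM (SD, n = 3), a difference of -0.61 ± 0.10 (adjusted p 2.7e-05), and 26.4% of rows were called lower. The EGF and EGF+TGFB libraries did not overlap for either gene.

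Added to OSM, TGFB left STC1 within the spread. The difference was 0.08 ± 0.13 (SE; adjusted p 0.644, same edgeR test), with a 95% interval from -0.19 to 0.35, which does not reach the 1.60 seen with EGF. The difference between these TGFB effects was itself not tested. For STC2 the difference was -0.25 ± 0.10, just short of the threshold (adjusted p 0.0518), and over the alternatives its adjusted p ranged from 0.014 to 0.138 (edgeR or DESeq2). Of all rows, 24.6% were called higher and 24.2% lower in this comparison. With EGF+OSM present, TGFB gave a fitted difference of -0.06 ± 0.13 for STC1 and of 0.35 ± 0.10 for STC2, described only.

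**Figure D2:**
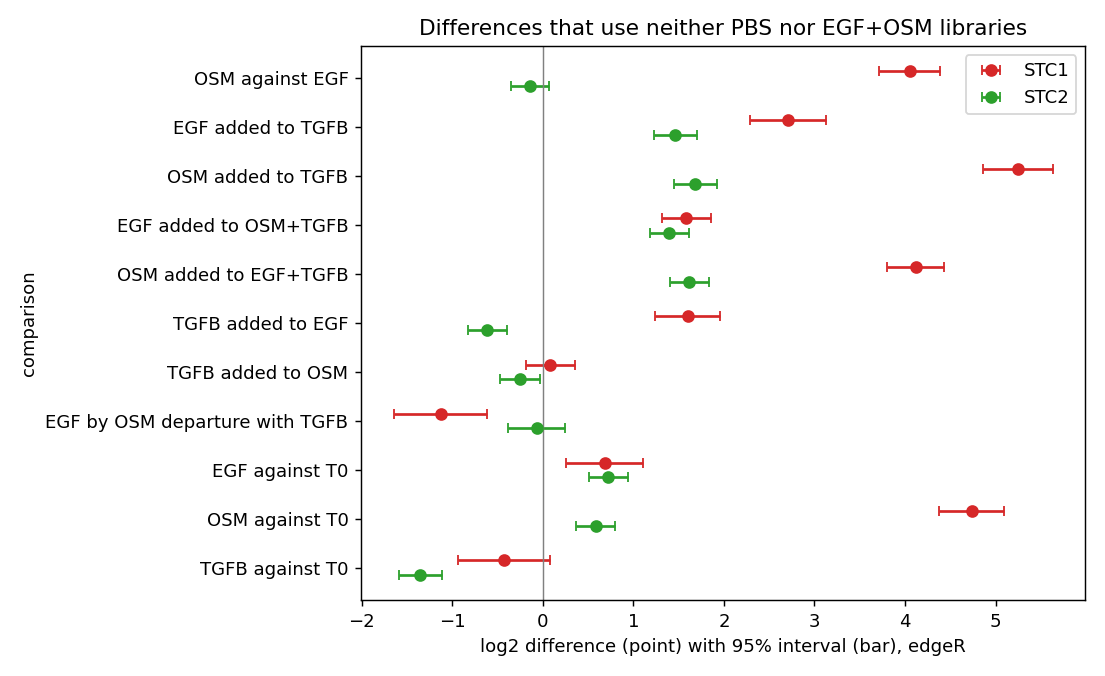
Log2 difference of STC1 and STC2 in the 11 tested comparisons, none of which uses PBS or EGF+OSM libraries; points are edgeR estimates and bars 95% intervals. STC1 differences with OSM lie between 4.05 and 5.24, TGFB added to EGF moves the genes apart (1.60 and -0.61), and the intervals of the 2 genes overlap for EGF against T0, EGF added to OSM+TGFB and TGFB added to OSM.

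Whether EGF and OSM added up depended on the scale. On the CPM scale, described without a test, EGF raised STC1 over PBS by 2.08 CPM and OSM by 55.3 CPM, a sum of 57.3 CPM. The 2 together raised it by 186 CPM, 3.25 times the sum. With TGFB in all groups the joint rise was 178 CPM, 2.65 times the sum of 67.04 CPM. STC1 was thus above the sum of CPM rises in both settings, and even the lowest EGF+OSM library was 169.7 CPM above the PBS mean.

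For STC2 the rises over PBS were 15.96 CPM with EGF and 13.5 CPM with OSM, a sum of 29.4 CPM, and the joint rise was 31.3 CPM, or 1.06 times the sum. With TGFB in all groups the joint rise was 47.7 CPM, 1.87 times the sum of 25.5 CPM. The STC2 rise was close to the CPM sum without TGFB and above it with TGFB.

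**Figure D3:**
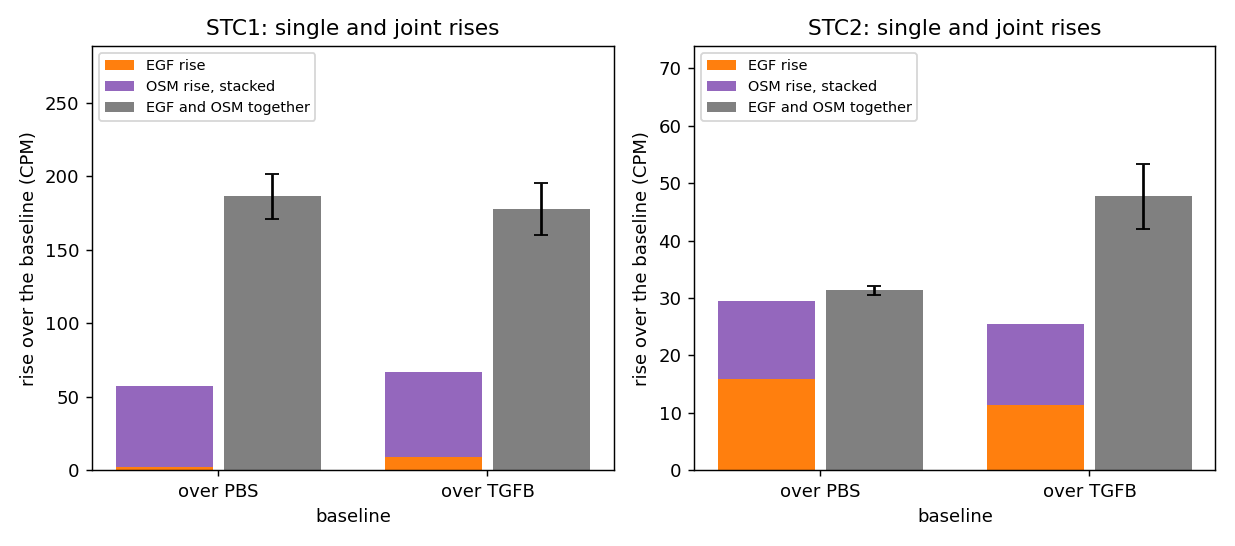
Rise over the baseline in CPM for EGF and OSM given singly (stacked) and for both together (grey, bar of ± 1 SD of the 3 joint libraries), over PBS and over TGFB. For STC1 the joint rise is 3.25 and 2.65 times the stack, and for STC2 it is 1.06 and 1.87 times.

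On the log2 scale, where log2 differences that add mean that fold changes multiply, the picture was another. With TGFB present, the response of STC1 to OSM was smaller when EGF was also there: 17.3-fold over EGF+TGFB against 37.9-fold over TGFB. This departure was -1.13 ± 0.25 (SE; adjusted p 0.00112, same edgeR test), in a contrast that called 19.1% of rows below 0 and 14.0% above. For STC2 the departure was -0.07 ± 0.15 (adjusted p 0.780), with a 95% interval from -0.39 to 0.25. Without TGFB, from libraries taken here to have chosen the genes, the fitted departures were 0.38 ± 0.27 for STC1 and -0.50 ± 0.15 for STC2. Joint STC1 levels were 188 CPM against 146 CPM from multiplied fold changes without TGFB, and 179 CPM against 393 CPM with it.

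The stanniocalcins' known partners were read from a list of 15 genes of the IGF and pappalysin axis. Of these, 13 passed the filter on low counts. IGFBP1 was listed at 0 in every group mean and the ligands IGF1 and IGF2 had group means of at most 0.487 and 0.078 CPM. The protease PAPPA was called higher when OSM was set against EGF or added to TGFB or EGF+TGFB, as were the receptor IGF1R and the binding protein IGFBP4.

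PAPPA was at 2.20 ± 0.124 CPM in EGF and 9.96 ± 0.382 CPM in OSM (SD, n = 3), a log2 difference of 2.18 with an adjusted p of 4.0e-10 (same edgeR test). It rose by 2.49 when OSM was added to TGFB and by 1.49 when OSM was added to EGF+TGFB. Its highest mean was in OSM+TGFB, 17.6 ± 2.83 CPM. Where STC1 rose with EGF added to OSM+TGFB, PAPPA fell by 0.53 on the log2 scale (adjusted p 0.0093).

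IGFBP4, a substrate of PAPPA, was at 0.908 CPM in EGF, 1.93 in OSM, 3.40 in OSM+TGFB and 1.94 with all 3 ligands. IGF1R was at 108 ± 6.39 CPM in EGF and 415 ± 32.6 CPM in OSM, and at 565 ± 39.0 CPM in OSM+TGFB. Both fell when EGF was added to OSM+TGFB, by 0.80 and by 0.52 on the log2 scale (adjusted p 0.0089 and 3.5e-07, same edgeR test). IRS1, a docking protein of the IGF and insulin receptors, was at 23.1 CPM in EGF, 9.28 in OSM, 32.7 in TGFB and 7.41 with all 3 ligands.

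Of the 13 tested genes, 5 were called higher in OSM than in EGF and 3 lower, with a median log2 difference of 0.36 against 0.00 over all rows. The 5 were PAPPA, IGF1R, IGFBP3, IGFBP4 and INSR, and the 3 were IGFBP2, IGFBP6 and IRS1. When EGF was added to OSM+TGFB, 1 was higher (IGFBP6) and 9 were lower, with a median of -0.56, or -0.53 with IGFBP5 at the bound of 3 counts over the group, where 24.9% of all rows were lower and their median was 0.00. In the remaining comparisons that use neither PBS nor EGF+OSM, 2 to 7 were higher and 1 to 6 lower, beside 12.8% to 32.7% of all rows higher and 12.0% to 34.9% lower. IGF2R and IRS2 moved by at most 0.48 and 0.82 in the 7 comparisons of ligands added to or set against each other.

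**Figure D4:**
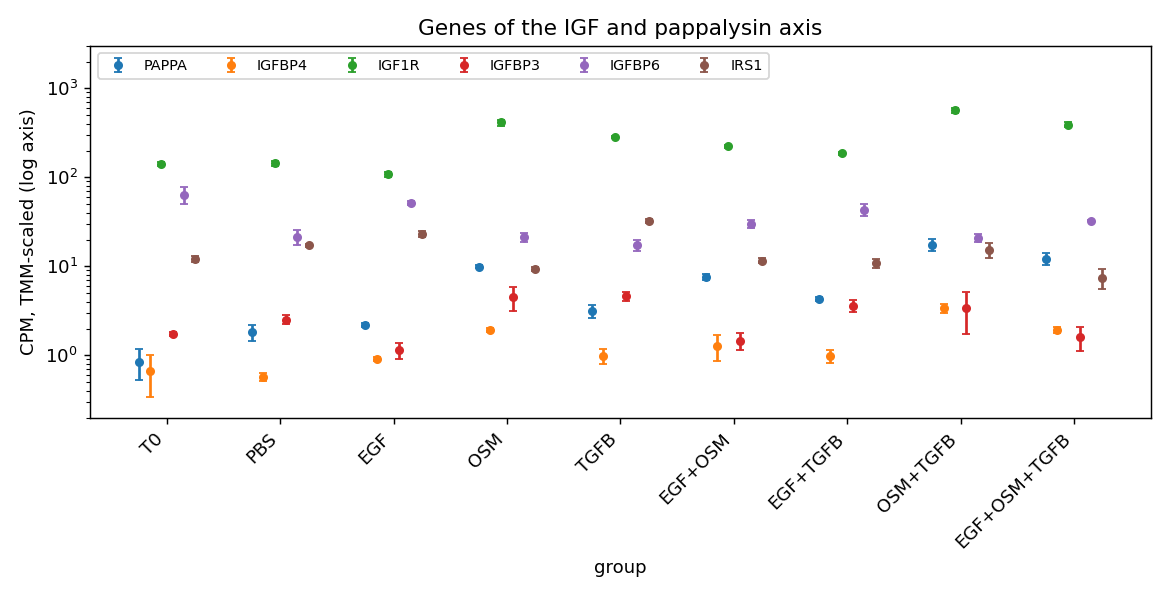
Mean level in CPM (log axis) of 6 genes of the IGF and pappalysin axis in the 9 groups, with bars of ± 1 SD over 3 libraries. PAPPA and IGF1R are highest in OSM+TGFB (17.6 and 565 CPM), and IGFBP4 peaks there as well (3.40 CPM).

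Hypoxia-responsive genes were followed because both stanniocalcins are known targets of that response. The list held 18 genes and all were tested. In OSM against EGF, 16 were higher and 0 lower, at a median log2 difference of 1.31. Adding OSM to TGFB gave 16 higher and 0 lower (median 1.65, with and without CA9 at its bound), and adding OSM to EGF+TGFB gave 18 higher (median 1.36). All rows had medians of 0.00, 0.01 and 0.00 in these comparisons, with 26.8%, 28.9% and 12.8% called higher.

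The hypoxia genes with the widest ranges were CA9, EGLN3 and ANGPTL4. CA9, a carbonic anhydrase, was at 10.5 ± 1.60 CPM in OSM and 0.231 ± 0.150 CPM in EGF (SD, n = 3). EGLN3, an oxygen-sensing hydroxylase, was at 52.4 ± 4.94 CPM in OSM, 1.98 ± 0.179 in EGF and 86.6 ± 7.13 in OSM+TGFB. ANGPTL4, a secreted inhibitor of lipoprotein lipase, was at 679 ± 123 CPM in OSM and 565 ± 47.6 in EGF, which did not differ past the threshold (log2 difference 0.26 ± 0.18 SE; adjusted p 0.226, same edgeR test).

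With EGF the list was called in both directions. EGF added to TGFB left 10 of 18 higher and 5 lower at a median of 0.43, beside 32.7% of all rows higher and 34.1% lower. EGF added to OSM+TGFB left 9 higher and 5 lower at a median of 0.20, beside 25.2% and 24.9% of all rows. STC1 and STC2 rose in both comparisons. In OSM against EGF, STC2 did not pass the threshold although 16 of the 18 genes did.

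**Figure D5:**
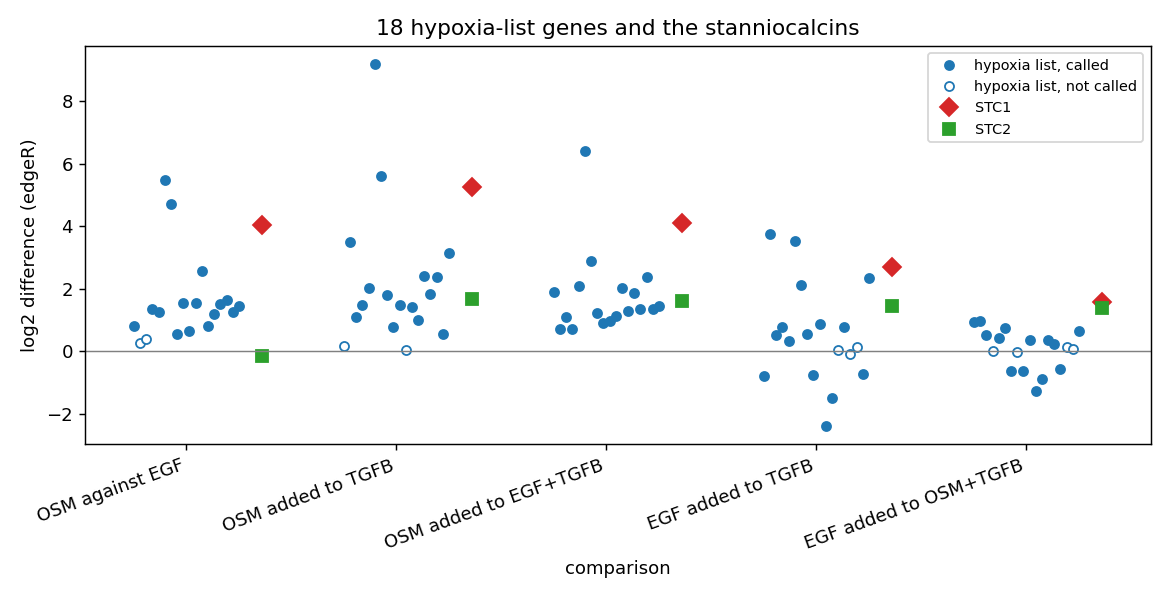
Log2 difference (edgeR) of the 18 hypoxia-list genes in 5 comparisons, filled where called at an adjusted p under 0.05, with STC1 (diamond) and STC2 (square) beside them. All 18 are called higher when OSM is added to EGF+TGFB, and 16 of 18 in OSM against EGF; the topmost point for OSM added to TGFB is CA9, whose TGFB libraries held 3 counts or fewer in all, so its position depends on the prior count.

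The genes most like each stanniocalcin were those with the highest Pearson r over the 9 group means of log2 CPM, among 8294 protein-coding genes whose group means ranged over at least 1 log2 unit. For STC1 these were CPNE5 (r = 0.989), CLEC12B (0.981), SLC2A3 (0.979), IL1R2 (0.978) and IL7R (0.976). SLC2A3, a glucose transporter, was at 1.60 CPM in EGF, 5.60 in OSM, 12.9 in EGF+OSM and 22.5 with all 3 ligands. IL7R, the interleukin-7 receptor, was at 1.199, 3.25, 13.7 and 15.4 CPM in the same groups. CPNE5, CLEC12B and IL1R2 did not exceed 4.22 CPM in any group mean.

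The genes most opposite to STC1 are known from squamous differentiation: DSG1, a desmosomal cadherin (r = -0.995), and the cornified envelope precursors SPRR1A (-0.994) and SPRR1B (-0.992). SPRR1B was at 656 CPM in PBS, 12.9 in EGF+OSM and 6.35 with all 3 ligands. DSG1 was at 9.97 CPM in PBS and 0.026 in EGF+OSM.

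For STC2 the most alike were MAMDC4 (r = 0.950), PLGRKT (0.945), TOMM40L (0.943), CADPS (0.942) and HS6ST2 (0.939), and the most opposite ISLR2 (-0.971), SOWAHB (-0.968) and CACNA1C (-0.967). HS6ST2, a heparan sulfate sulfotransferase, was at 20.6 CPM in TGFB, 24.3 in PBS, 48.6 in EGF, 46.2 in OSM and 61.3 with all 3 ligands. SOWAHB was at 13.7 CPM in TGFB, 7.97 in PBS and 0.486 with all 3 ligands. The highest group means of MAMDC4, CADPS, ISLR2 and CACNA1C were only 1.68, 0.785, 0.589 and 0.443 CPM. Over the 27 libraries r was 0.800 for MAMDC4 and -0.794 for ISLR2. With Spearman's rho in place of r, 0 of the 5 STC1 genes and 1 of the 5 STC2 genes stayed among the first 5, and 0 of the 3 most opposite genes stayed for either. Over the 27 libraries, 3 of the 3 opposite genes stayed for STC1 and 1 of 3 for STC2.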

How the data were processed

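The deposited table gives estimated counts per Ensembl gene for 27 polyadenylated, stranded libraries. The submitters' processing notes name Trim Galore 0.4.3, cutadapt 1.10, FastQC 0.11.5, kallisto 0.46.2, R 3.5.0 and the build GRCh38.p5 (hg38), with no role or order. The deposited values were whole, so rounding changed nothing. Coordinates are from GENCODE v44, also on GRCh38. Rows without a symbol (7165) took 0.324% of counts and stayed in.

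Tests used edgeR 4.0.16 in R 4.3.3: filterByExpr by group (16611 rows left), TMM factors from 0.867 to 1.12, 1 mean per group over all 27 libraries with 18 residual degrees of freedom, glmQLFTest, and Benjamini-Hochberg adjustment over all rows, called under 0.05. Both members had at least 40 counts in every library. The 11 comparisons without PBS or EGF+OSM gave 22 tests of the members, and 12 others are described. The biological coefficient of variation was 12.4% for STC1 and 8.60% for STC2. Counting noise adds to this for STC1 in PBS and TGFB, at 40 to 77 counts per library. Replicate pairs differed by more than sampling noise (chi-square per degree of freedom from 7.72 up). The fit was also run on simulated counts, with an outcome not reported here. Far fewer genes changed in them than were called in these data, so they cannot show how the fit behaves with so many changes.

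The members and gene lists were chosen with earlier results of these data known. Named were both members, IGF-axis genes over 1 CPM in some group, the 3 widest-ranging genes of each other list (calcium and phosphate transport, ATF4 and endoplasmic reticulum stress, hypoxia), and the most alike and opposite genes. Neighbouring genes and motifs were added later, and some genes are not reported here. DESeq2 1.42.0 was an alternative, as were other scalings, filters, samples, a replicate block and leaving out each library.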

Additional observations from a re-analysis of the deposited data

Results flagged for a closer look

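In cells given TGFB, the response of STC1 to OSM was smaller when EGF was also present. The log2 response was 4.12 with EGF against 5.24 without it, a departure of -1.13. It is listed because the test of the difference itself passed the threshold (adjusted p 0.00112, quasi-likelihood F test of edgeR, Benjamini-Hochberg adjusted; range over the alternatives 5.8e-06 to 0.0081). On the CPM scale the same joint rise was 2.65 times the sum of the single rises.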

How the results depend on the processing

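Of the alternative values of the members' tests, 158 for STC1 (all but 2) and 149 for STC2 (all but 11) kept both the direction and the side of the threshold. STC2 with TGFB added to OSM passed the threshold under RLE scaling (-0.25), upper-quartile scaling (-0.27), the replicate block (-0.25), summed symbols (-0.25), only the groups compared (-0.26) and DESeq2 (-0.25), and ranged from -0.36 to -0.22 when 1 library was left out, passing without OSM replicate 2 (adjusted p 0.031) or OSM+TGFB replicate 3 (0.014), with adjusted p from 0.014 to 0.138 over all alternatives. Leaving out 1 library gave 0.48 to 0.81 for STC1 in EGF against T0, -0.036 to 0.18 for STC1 with TGFB added to OSM, and -0.20 to 0.030 for the STC2 departure, the last 2 near 0 and not called. Levels were recomputed under 1 other setting, raw library totals, and these moved by more than 1 SD: STC1 to 2.32 CPM in T0, 52.6 in OSM+TGFB and 157 with all 3 ligands, and STC2 to 12.05 in PBS, 29.2 in EGF, 43.2 in EGF+OSM, 18.1 in OSM+TGFB and 47.4 with all 3 ligands. The causes were not tested.

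The replicate block changed no other call of the members. Same-numbered libraries deviated together only weakly (median r 0.041, 10 of 108 pairs over 0.1), although 25 of 27 libraries correlated best with their own number. Over 27 libraries in place of 9 group means, 4 of the 5 genes most like STC1 and 2 of the 5 most like STC2 stayed. Upper-quartile scaling set the median of all rows at -0.15 for EGF and -0.10 for all 3 ligands against PBS, where TMM gave -0.07 and 0.00.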

Other observations

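Calcium and phosphate transport are processes that stanniocalcins are known to affect. Of 15 listed genes 13 were tested, and EGF added to TGFB left 7 higher and 5 lower (median 0.28, against -0.03 over all rows, of which 32.7% were higher and 34.1% lower), while OSM against EGF left 3 higher and 5 lower (median -0.35, beside 26.8% of all rows higher and 27.6% lower). SLC20A1, a sodium-phosphate cotransporter, was at 57.9 ± 0.471 CPM in PBS, 352 ± 107 in OSM, 813 ± 36.6 in EGF and 899 ± 55.3 in EGF+OSM (SD, n = 3). SLC8A1, a sodium-calcium exchanger, was at 1.61 CPM in EGF, 0.092 in OSM and 2.45 in EGF+TGFB, and TRPV6, an epithelial calcium channel, did not exceed 0.527 CPM in any group mean.

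The 18 ATF4 and endoplasmic reticulum stress genes were all tested. TGFB added to EGF, where STC2 fell, left 12 higher and 4 lower (median 0.59, against -0.02 over all rows). Of all rows, 25.8% were higher and 26.4% lower there. EGF added to TGFB, where STC2 rose, left 9 higher and 5 lower (median 0.42), beside 32.7% and 34.1% of all rows. OSM added to TGFB, where STC2 also rose, left 9 higher and 4 lower (median 0.19), beside 28.9% and 25.3%. STC2 rose as well with EGF added to OSM+TGFB, where 7 were higher and 5 lower (median 0.12), beside 25.2% and 24.9%. With OSM added to EGF+TGFB, where STC2 rose too, 4 were higher and 3 lower (median 0.05), beside 12.8% and 12.0%. A link of STC2 to this list was not tested. TRIB3, a pseudokinase induced by ATF4, was at 55.5 ± 3.72 CPM in EGF and 94.3 ± 12.7 in EGF+TGFB (SD, n = 3), ATF3 at 1.86 and 5.78 CPM, and VLDLR at 1.76 and 3.77 CPM. When OSM was set against EGF, 9 were higher and 5 lower, beside 26.8% and 27.6% of all rows.

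Some genes near the stanniocalcins were looked at after the values were seen, with CPM over raw library totals. NKX2-6, ADAMDEC1 and ADAM28 near STC1 stayed at or under 0.556 CPM. Near STC2, NKX2-5 ran from 4.32 CPM in PBS to 8.45 in EGF+TGFB, and BNIP1 from 4.86 in OSM+TGFB to 11.4 in EGF+OSM.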
